A study of Mus musculus with 10 samples.

Results

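Aminoacyl-tRNA synthetases are the enzymes that attach each amino acid to its transfer RNA. Their genes were taken from the 10 count files by symbol, as a single-letter amino acid code followed by ars with or without a suffix of 1, 2 or 3, together with Eprs, Farsa and Farsb. The rule left out Lars2, the gene of the mitochondrial leucine enzyme, which was counted with the genes whose reads resemble ribosomal RNA. In this way 36 of the 50559 genes counted were members. Of these, 20 genes with suffix 1 or none encode cytosolic enzymes and 16 genes with suffix 2 encode mitochondrial enzymes. Eprs encodes a fused enzyme for glutamate and proline, and Farsa and Farsb encode the subunits of the cytosolic phenylalanine enzyme. All 36 genes passed the filter on low counts that left 29952 genes for testing.

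Without charged tRNA a ribosome cannot elongate a peptide, so every cell needs the full set of cytosolic enzymes, and the mitochondrion needs a set of its own for the few proteins its genome encodes. Several cytosolic enzymes assemble into the multisynthetase complex with scaffold proteins, and all are housekeeping genes whose demand follows the rate of protein synthesis. MYC is known to raise transcription of genes for ribosomes and translation in growing cells, and ATF4 to raise several synthetase genes when amino acids are scarce. Inherited defects of the mitochondrial enzymes are known for brain disease, among them underdevelopment of the pons and cerebellum with RARS2.

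Total RNA from formalin-fixed tissue of mice was sequenced in 3 groups. The 4 MYC/SMARCA4 tumors grew in cerebella of CD1nu/nu hosts from granule cell precursors taken at P7 from Math1-creERT2::Smarca4fl/fl pups that had received tamoxifen at P3. These precursors received murine Myc from a lentivirus with a CMV promoter, and the hosts were 112, 96, 89 and 79 days old for tumors 1 to 4. The 3 P7 cerebella came from Math1-creERT2::Smarca4fl/fl mice aged 7 days that had received 0.4 mg tamoxifen at P3, so they carry the same floxed alleles and the same Cre. The 3 SHH MB came from Math1-cre::Smofl/wt mice aged 7 days, in which Cre turns on an active Smo allele. Cells of the P7 cerebella in which Math1 did not drive Cre keep Smarca4, and a tumor punch also holds cells of its host. Age, host, transplantation and group cannot be told apart between the tumors and the other groups. A bulk level also cannot tell fewer cells of a type from less RNA per cell.

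Total counts ranged from 5663491 in tumor 3 to 9352109 in tumor 4, with 6547245 in tumor 1 and 6945005 in tumor 2. The P7 cerebella had 8958307, 8139778 and 5933515 counts, and the SHH MB had 5930961, 7933586 and 7031248. Levels are given as CPM, a count scaled to library size, after normalization by the trimmed mean of M-values, and 3 counts correspond to 0.307 to 0.744 CPM. Every member lay above this floor in each of the 10 libraries. Where a gene is said to lead its list, this is by CPM, not scaled to length.

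The labels were checked with Myc, the transcription factor that the lentivirus adds, which had 152, 368, 1587 and 1016 CPM in tumors 1 to 4, 13.2, 14.3 and 12.98 CPM in the P7 cerebella and 38.4, 33.7 and 45.7 CPM in the SHH MB. All 4 tumors lay above all other libraries, and tumor 1 was the lowest of the tumors. Gene counts do not separate the viral from the mouse's own Myc. Myc differed from the P7 cerebella by a log2 fold change of 5.85 ± 0.75 (SE; edgeR, Benjamini-Hochberg adjusted p 0.00194) and from the SHH MB by 4.31 ± 0.69 (adjusted p 0.00428). Smarca4, the chromatin remodeler gene floxed in the tumors and in the P7 cerebella, had 208, 244, 136 and 238 CPM in tumors 1 to 4, 221, 282 and 259 CPM in the P7 cerebella and 546, 491 and 589.7 CPM in the SHH MB. Tumor 3 was lowest and the SHH MB were highest, tumor 1 lay just under the P7 cerebella, and tumors 2 and 4 lay within their range. Smarca4 was called lower in the tumors than in the SHH MB, at -1.39 ± 0.28 (edgeR adjusted p 0.0157), and was not called against the P7 cerebella, at -0.30 ± 0.28 (edgeR adjusted p 0.495).

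Tumor 1 stood apart from the other tumors before any synthetase is considered. The summed level of 8 proliferation genes was 130.1, 1721, 1960.4 and 1828 CPM in tumors 1 to 4, 1032, 763 and 849 CPM in the P7 cerebella and 2173, 2050.2 and 2514 CPM in the SHH MB, led by Mki67 with 45.6, 771, 939 and 712 CPM in tumors 1 to 4. Tumor 1 thus lay under every other library, whereas tumors 2 to 4 lay above the P7 cerebella. The 5 mature granule neuron markers summed to 3302, 1118, 167 and 610.0 CPM in tumors 1 to 4, 137, 164 and 127 CPM in the P7 cerebella and 42.5, 50.3 and 44.6 CPM in the SHH MB. All 5 were highest in tumor 1, and Cbln3, a synaptic organizer with the highest mean CPM of them over the tumors, not scaled to length, had 1759.5, 462, 42.8 and 226 CPM in tumors 1 to 4, where Slc17a7 was higher in tumor 3. By edgeR 4 of the 5 were called higher against the P7 cerebella and 5 against the SHH MB, against 3.99% and 2.43% of all genes tested. Without tumor 1 there were also 4 and 5, against 11.1% and 5.91%. Against the P7 cerebella there were 2 without tumor 2, against 1.77%, and 0 without any 1 P7 cerebellum, against 0.100% to 0.227%. The 6 Purkinje cell markers summed to 12252, 3008, 363 and 1979.5 CPM in tumors 1 to 4, 1403, 1331 and 1258 CPM in the P7 cerebella and 585, 611 and 330.2 CPM in the SHH MB, led by Itpr1, a calcium channel gene. The 8 myelinating oligodendrocyte markers summed to 4175, 841, 118 and 465 CPM in tumors 1 to 4, 964, 1143 and 1089 CPM in the P7 cerebella and 397, 377 and 129 CPM in the SHH MB, led by Mbp, a myelin protein gene. Again tumor 1 was highest and tumor 3 lowest of the tumors in both lists. All 6 and all 8 genes had their highest level of the 10 libraries in tumor 1. Mitochondrial transcripts took 6.36% of counts in tumor 1, 2.94%, 2.89% and 2.29% in tumors 2 to 4, and 1.25% to 1.59% in the other groups. Results are therefore also given without tumor 1, and the part of these signals in the synthetase levels was not tested.

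The 6 granule cell lineage markers, the cell type of origin, summed to 1894, 1539, 781 and 600.1 CPM in tumors 1 to 4, 1859, 1928 and 1708 CPM in the P7 cerebella and 1754, 1858 and 2104 CPM in the SHH MB, led by Zic1. Tumors 3 and 4 lay under all other libraries. By edgeR 1 of the 6 was called lower against the P7 cerebella and 1 against the SHH MB, against 2.27% and 2.26% of all genes tested. Single genes differed, with 1 fitted higher against the P7 cerebella and 2 against the SHH MB. Neurod1, also on the list, had 366, 456, 252 and 89.7 CPM in tumors 1 to 4. It had 426, 438 and 353 CPM in the P7 cerebella and 159, 175 and 173 CPM in the SHH MB. Barhl1, a transcription factor of this lineage, had 17.8, 11.2, 12.6 and 11.6 CPM in tumors 1 to 4 against 133, 109 and 114 CPM in the P7 cerebella and 314, 363 and 415 CPM in the SHH MB, so it was present in each tumor at a level under both other groups. Atoh1, which the Math1 label refers to, was nearly absent from tumor 1, with 0.496, 24.7, 31.5 and 3.42 CPM in tumors 1 to 4, against 29.7, 17.4 and 19.5 CPM in the P7 cerebella and 97.9, 114 and 139 CPM in the SHH MB. Tumor 4 also lay under the P7 cerebella, tumor 2 among them and tumor 3 above them.

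The cytosolic synthetases summed to 1798, 2265, 2019.8 and 2865 CPM in tumors 1 to 4, 1134, 1098 and 1043 CPM in the P7 cerebella and 1514, 1515 and 1591 CPM in the SHH MB. By these normalized sums every tumor lay above every SHH MB, and every SHH MB above every P7 cerebellum. As a share of total counts, without normalization, the cytosolic members took 0.111%, 0.181%, 0.255% and 0.251% in tumors 1 to 4. The P7 cerebella had 0.123% to 0.124% and the SHH MB 0.159% to 0.164%. By this share tumor 1 lay under every other library and tumors 2 to 4 above both other groups. The normalization factor was 0.619 in tumor 1 and 0.802 to 1.28 in the other libraries. The mitochondrial synthetases summed to 506, 589, 521 and 658 CPM in tumors 1 to 4, 357, 328 and 329.6 CPM in the P7 cerebella and 394, 411 and 409.9 CPM in the SHH MB, in the same order of groups as the cytosolic sums. Their shares of total counts were 0.0312%, 0.0471%, 0.0658% and 0.0577% in tumors 1 to 4. They were 0.0369% to 0.0390% in the P7 cerebella and 0.0410% to 0.0440% in the SHH MB. Tumor 1 was again the lowest library by share, so its place above the other groups in both classes rests on the normalization. Relative to the mean of the P7 cerebella, the median cytosolic member stood at 0.64, 0.90, 0.70 and 1.34 on the log2 scale in tumors 1 to 4 and at 0.49, 0.43 and 0.47 in the SHH MB. The median mitochondrial member stood at 0.65, 0.77, 0.65 and 0.97 in tumors 1 to 4 and at 0.25, 0.20 and 0.33 in the SHH MB. Of the 20 cytosolic genes, 18, 20, 17 and 20 lay above the highest P7 cerebellum in tumors 1 to 4, and 18, 16 and 15 did so in the SHH MB. Of the 16 mitochondrial genes, 9, 14, 14 and 15 did so in tumors 1 to 4 and 10 in each SHH MB. These counts rest on normalized levels and have no share of all genes beside them, so they only describe the members. Tumor 4 was the highest tumor for 17 of the 20 cytosolic genes, and tumors 1 and 3 were each the lowest tumor for 10 of them.

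**Figure D1:**
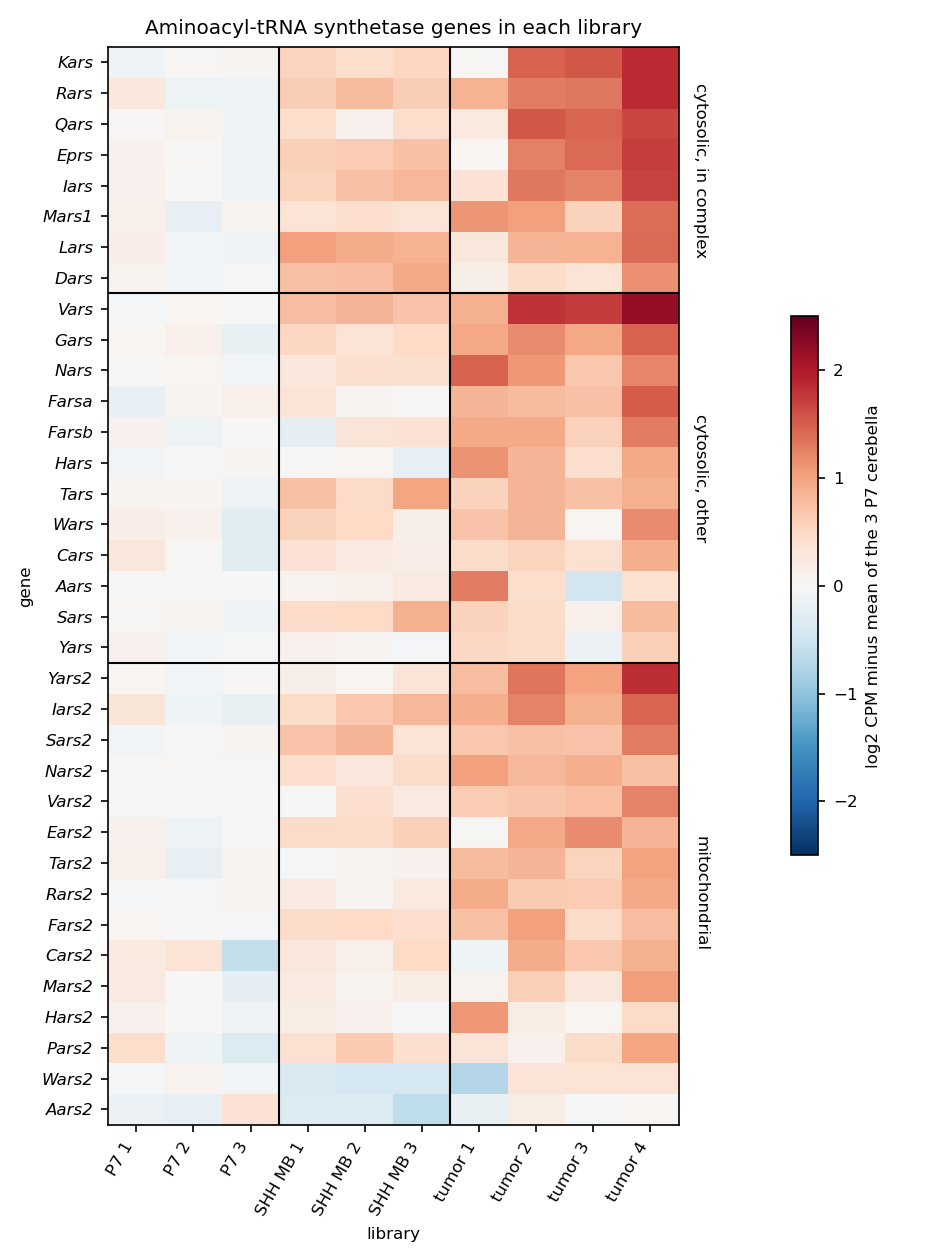
Level of 35 of the 36 synthetase genes (vertical axis, by class; 1 mitochondrial member is not shown) in each of the 10 libraries (horizontal axis), as log2 CPM minus the mean of the 3 P7 cerebella. Tumor 4 is the highest tumor for 17 of 20 cytosolic genes, and in tumor 1 Kars, Eprs and Dars stay near the level of the P7 cerebella.

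The comparison of the tumors with the P7 cerebella asks how the synthetase genes of the tumors stand against the tissue from which the precursors come. By edgeR at an adjusted p of at most 0.05, 13 of 36 members were called higher, 10 of 20 cytosolic and 3 of 16 mitochondrial, against 3.99% of all genes tested. None was called lower, against 2.27% of all genes tested, and none was lower at an unadjusted p under 0.05 by edgeR or by DESeq2 at an adjusted p of at most 0.05. At an unadjusted p under 0.05, 26 of 36 members were higher, beside 4571 of all 29952 genes. In 23 members, 15 cytosolic and 8 mitochondrial, every tumor was above every P7 cerebellum, against 10.3% of all genes tested. The median log2 fold change was 0.99 over the cytosolic members, 0.81 over the mitochondrial members and -0.05 over all genes tested. Fitted values were above 0 for 35 of the 36, with Aars2 at -0.01 the exception, whose sign changed with the scaling.

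The number of calls against the P7 cerebella depended on single libraries. Without tumor 1, 24 members were called higher, 14 cytosolic and 10 mitochondrial, against 11.1% of all genes tested. DESeq2 on all libraries also called 24 higher, 14 cytosolic and 10 mitochondrial, against 10.4% of all genes tested. Without tumor 3 there were 23, against 11.8% of all genes tested, without tumor 2 there were 4, against 1.77%, and without tumor 4 there were 3, against 1.80%. Without any 1 SHH MB there were 2, against 1.34% to 1.46% of all genes tested. Leaving out any 1 P7 cerebellum left 0 calls among members by edgeR, with 26, 23 and 23 at an unadjusted p under 0.05, against 0.227%, 0.100% and 0.124% of all genes called. A fit of the tumors and P7 cerebella alone also called 0 members, with 23 at an unadjusted p under 0.05, against 0.206% of all genes tested. The medians moved less, from 0.75 to 1.03 for the cytosolic and from 0.66 to 0.83 for the mitochondrial members over the fits that each left out 1 library. Under the study's stricter rules, which require an adjusted p of at most 0.01, 0 members reached 1.5 on the log2 scale, against 0.738% of all genes tested, and 2.5 was reached by 0 members and 87 genes in all.

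Vars, the cytosolic valine enzyme, binds the elongation factor complex that takes up charged tRNA. It had 119.7, 227, 216 and 295 CPM in tumors 1 to 4, 62.4, 66.6 and 64.2 CPM in the P7 cerebella and 110.3, 116 and 106 CPM in the SHH MB. All tumors were above both other groups, tumor 1 only slightly above the SHH MB, and the SHH MB were above the P7 cerebella. Vars had the largest change and the lowest adjusted p of the members, a log2 fold change of 1.74 ± 0.31 (edgeR adjusted p 0.0105). Without any 1 tumor or SHH MB it was still called, but not without any 1 P7 cerebellum.

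Gars, the glycine enzyme, serves the cytosol and the mitochondrion from a single gene. Its levels were 139.6, 163, 139.6 and 199 CPM in tumors 1 to 4, 74.3, 78.2 and 63.3 CPM in the P7 cerebella and 102, 91.2 and 102 CPM in the SHH MB. The groups did not overlap, with the tumors highest and tumors 1 and 3 nearly equal, and the log2 fold change against the P7 cerebella was 1.16 ± 0.25 (edgeR adjusted p 0.0201). Nars, which charges asparagine, measured 175, 133, 99.9 and 146 CPM in tumors 1 to 4, 63.4, 64.6 and 59.9 CPM in the P7 cerebella and 75.0, 84.4 and 83.1 CPM in the SHH MB. Tumor 1 was the highest library and tumor 3 the lowest tumor, still above both other groups, and the log2 fold change was 1.14 ± 0.25 (edgeR adjusted p 0.0234). Farsa, the alpha subunit of the phenylalanine enzyme, had 48.3, 45.9, 44.2 and 76.1 CPM in tumors 1 to 4, 23.1, 27.8 and 29.1 CPM in the P7 cerebella and 33.1, 27.7 and 26.3 CPM in the SHH MB. Tumor 4 lay far above tumors 1 to 3, which were close together and above both other groups. Its log2 fold change was 1.01 ± 0.27 (edgeR adjusted p 0.0433). Farsb, the beta subunit of the same enzyme, had 70.9, 70.4, 54.3 and 89.2 CPM in tumors 1 to 4 against 39.4, 33.5 and 36.5 CPM in the P7 cerebella, and 0.96 ± 0.26 as log2 fold change (edgeR adjusted p 0.0462). The subunits thus had changes within 1 standard error of each other.

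Of the 8 enzymes of the multisynthetase complex, Rars, Mars1, Qars, Iars and Kars were called higher than in the P7 cerebella, and Eprs, Lars and Dars were not. Rars, the arginine enzyme, had 44.6, 59.4, 60.4 and 88.6 CPM in tumors 1 to 4, 29.0, 22.2 and 22.1 CPM in the P7 cerebella and 37.2, 41.9 and 37.5 CPM in the SHH MB. The groups did not overlap and tumor 1 was the tumor nearest to the SHH MB, with a log2 fold change against the P7 cerebella of 1.37 ± 0.28 (edgeR adjusted p 0.0166). Mars1, the methionine enzyme that also charges the initiator tRNA, had 92.0, 86.7, 64.1 and 113 CPM in tumors 1 to 4, 46.5, 37.1 and 45.1 CPM in the P7 cerebella and 54.1, 57.1 and 53.8 CPM in the SHH MB. All tumors were above the other libraries, tumor 3 the least, and the log2 fold change was 1.05 ± 0.25 (edgeR adjusted p 0.0313).

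Qars, the glutamine enzyme, had 44.6, 112, 104 and 121 CPM in tumors 1 to 4, 38.6, 40.1 and 35.0 CPM in the P7 cerebella and 51.6, 40.9 and 51.3 CPM in the SHH MB. Tumor 1 lay far below the other tumors, just above the P7 cerebella and among the SHH MB. The log2 fold change was 1.33 ± 0.32 (edgeR adjusted p 0.0331). Iars, the isoleucine enzyme, had 77.3, 149.6, 143 and 194 CPM in tumors 1 to 4, 64.5, 59.6 and 55.9 CPM in the P7 cerebella and 88.2, 99.7 and 107 CPM in the SHH MB. Tumor 1 was under all SHH MB and above all P7 cerebella, and tumors 2 to 4 were the highest libraries. Its log2 fold change was 1.23 ± 0.30 (edgeR adjusted p 0.0346). Kars, the lysine enzyme, also serves the mitochondrion and had 68.2, 188, 197 and 246 CPM in tumors 1 to 4, 62.6, 68.8 and 70.5 CPM in the P7 cerebella and 99.6, 91.0 and 97.2 CPM in the SHH MB. Tumor 1 lay within the range of the P7 cerebella, whereas tumors 2 to 4 were above every other library. The log2 fold change was 1.38 ± 0.36 (edgeR adjusted p 0.0439).

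Eprs, the glutamate and proline enzyme, showed the same split among tumors, with 138, 322, 360.0 and 447 CPM in tumors 1 to 4 against 144, 136 and 123 CPM in the P7 cerebella and 203, 207 and 224 CPM in the SHH MB. It missed the threshold at 1.24 ± 0.35 (edgeR adjusted p 0.0567). Lars, the leucine enzyme, had 58.3, 86.4, 87.6 and 127 CPM in tumors 1 to 4, 53.3, 45.1 and 44.8 CPM in the P7 cerebella and 97.5, 91.3 and 87.6 CPM in the SHH MB, so tumors 2 and 3 were close to the lowest SHH MB and tumor 1 was below it. Dars, the aspartate enzyme, had 44.9, 55.4, 51.2 and 90.1 CPM in tumors 1 to 4, 43.0, 38.8 and 39.7 CPM in the P7 cerebella and 67.2, 69.0 and 78.3 CPM in the SHH MB. Only tumor 4 exceeded the SHH MB.

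Taken as a list, the complex enzymes stood at 0.26, 1.27, 1.28 and 1.68 on the log2 scale above the mean of the P7 cerebella in tumors 1 to 4 and at 0.58, 0.68 and 0.68 in the SHH MB. The 12 cytosolic enzymes outside the complex stood at 0.88, 0.84, 0.50 and 1.06 in tumors 1 to 4 and at 0.34, 0.33 and 0.29 in the SHH MB. By these medians the complex enzymes were below the other cytosolic enzymes in tumor 1 and above them in tumors 2 to 4, with single genes on either side, and the difference was not tested. Against the P7 cerebella, 5 of 8 complex enzymes were called with a median log2 fold change of 1.24, and 5 of 12 outside it with a median of 0.82, against 3.99% of all genes tested. Without tumor 1 these became 7 of 8 with 1.47 and 7 of 12 with 0.81, against 11.1%, and without tumor 3 there were 6 and 8 calls, against 11.8%. Without tumor 2 there were 1 and 3, against 1.77%, and without tumor 4 there were 1 and 2, against 1.80%. Without any 1 SHH MB there were 1 and 1, against 1.34% to 1.46%, and without any 1 P7 cerebellum 0 and 0, against 0.100% to 0.227%. By DESeq2 there were 7 and 7, against 10.4% of all genes tested. By structure, 5 of 9 class I and 5 of 10 class II cytosolic enzymes were called, with medians of 1.05 and 0.91, and Eprs joins both classes. Without tumor 1 or tumor 3, and by DESeq2, these were 6 and 7, without tumor 2 they were 2 and 2, without tumor 4 they were 2 and 1, without any 1 SHH MB they were 2 and 0, and without any 1 P7 cerebellum 0 and 0.

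**Figure D2:**
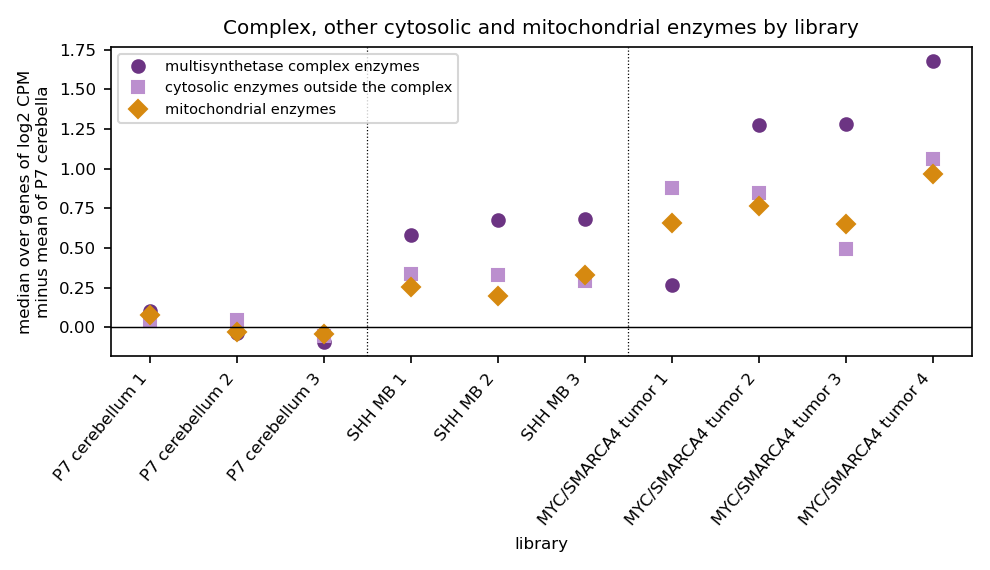
Median over genes of log2 CPM minus the mean of the P7 cerebella (vertical axis) in each library (horizontal axis), for 8 complex enzymes, 12 other cytosolic enzymes and 16 mitochondrial enzymes. Among the tumors, the complex enzymes are lowest in tumor 1, at 0.26, and highest in tumor 4, at 1.68.

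Of the cytosolic members not called against the P7 cerebella, log2 fold changes ranged from 0.38 for Yars to 1.24 for Eprs. Yars, the tyrosine enzyme, Sars, the serine enzyme, and Aars, the alanine enzyme, were farthest from the cytosolic median. Yars had 75.9, 72.9, 47.9 and 79.4 CPM in tumors 1 to 4, 57.0, 50.2 and 51.2 CPM in the P7 cerebella and 57.1, 55.3 and 51.3 CPM in the SHH MB, so that tumor 3 lay under every other library and the other tumors above them. Sars had 111, 103, 81.0 and 128 CPM in tumors 1 to 4 and 75.9, 78.1 and 68.9 CPM in the P7 cerebella, without overlap but with tumor 3 close to them, and the SHH MB reached 103, 105 and 138 CPM. Its fitted log2 fold change was 0.51 ± 0.25 (edgeR adjusted p 0.219). Aars had 232, 131, 69.1 and 126 CPM in tumors 1 to 4, 95.9, 95.3 and 96.6 CPM in the P7 cerebella and 102, 105 and 112 CPM in the SHH MB. Tumor 1 was the highest library and tumor 3 the lowest, and its fitted change was 0.54 ± 0.34 (edgeR adjusted p 0.324). Hars, the histidine enzyme, had 98.4, 81.2, 60.2 and 87.1 CPM in tumors 1 to 4, 42.9, 45.1 and 46.8 CPM in the P7 cerebella and 45.7, 46.2 and 39.1 CPM in the SHH MB. All 4 tumors were above all other libraries, tumor 1 the most, and at 0.86 ± 0.24 its adjusted p of 0.0527 by edgeR lay just past the threshold.

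**Figure D3:**
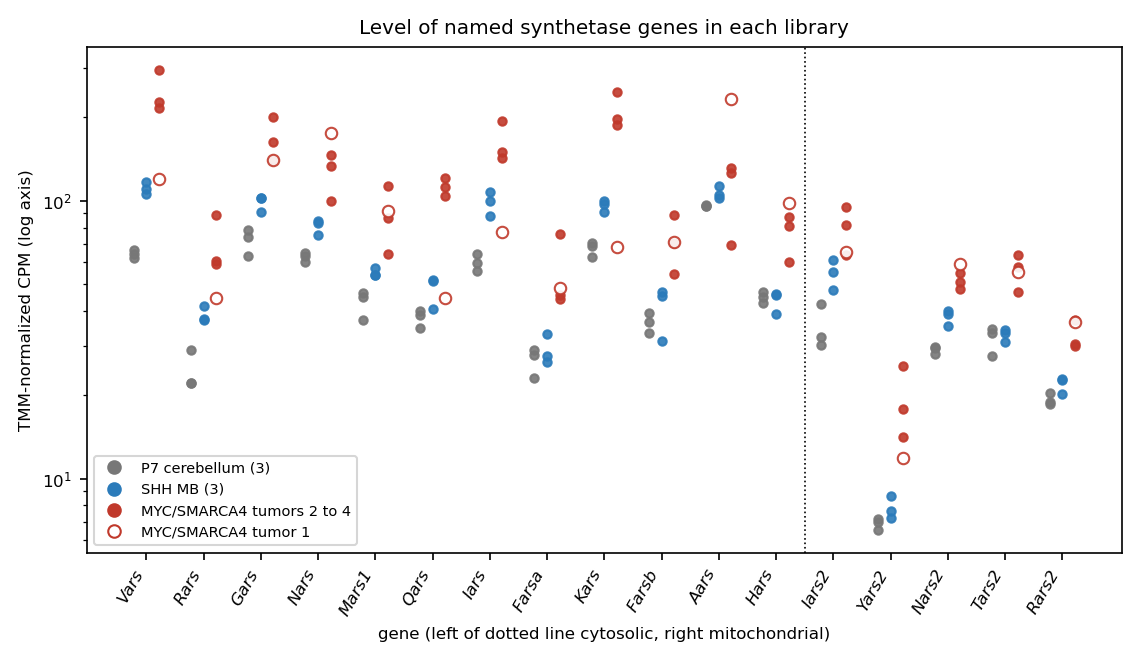
Normalized CPM on a log axis (vertical) of 12 cytosolic and 5 mitochondrial synthetase genes (horizontal), with a point for each library and tumor 1 as an open circle. Kars has 68.2 CPM in tumor 1 and 188 CPM or more in the other tumors, while Nars and Aars are highest in tumor 1.

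Promoter windows of 300 bases, from 250 before to 50 after the start, were taken from RefSeq on GRCm38.p6. Windows were given for 26 of the 36 members, and among those without were Pars2, Cars, Rars, Wars, Vars, Hars, Hars2, Lars and Nars. Both strands were searched for CACGTG, the E-box that MYC binds with MAX, and for TGATGNAA, the core of the element that ATF4 binds with a partner. CACGTG was in 4 of 13 cytosolic members (Aars, Farsb, Iars and Tars), in 1 of 13 mitochondrial members (Ears2) and in 7.15% of all 32851 windows. TGATGNAA was in 5 of 13 cytosolic members (Aars, Gars, Iars, Tars and Yars), in 0 of 13 mitochondrial members and in 3.97% of all windows. No matches overlapped. The windows of the 3 members with both motifs and of Gars, a called gene with TGATGNAA alone, are printed 5′ to 3′ on the strand of the gene, with the motif matches in capitals. They are descriptions of letters, not of binding.
Iars, chr13:49681880-49682179, plus strand: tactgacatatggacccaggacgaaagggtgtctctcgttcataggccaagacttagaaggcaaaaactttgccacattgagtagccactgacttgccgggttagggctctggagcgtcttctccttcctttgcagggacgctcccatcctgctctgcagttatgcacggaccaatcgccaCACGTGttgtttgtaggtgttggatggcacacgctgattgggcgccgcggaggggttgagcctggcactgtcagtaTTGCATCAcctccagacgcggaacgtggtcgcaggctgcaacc
Gars, chr6:55037751-55038050, plus strand: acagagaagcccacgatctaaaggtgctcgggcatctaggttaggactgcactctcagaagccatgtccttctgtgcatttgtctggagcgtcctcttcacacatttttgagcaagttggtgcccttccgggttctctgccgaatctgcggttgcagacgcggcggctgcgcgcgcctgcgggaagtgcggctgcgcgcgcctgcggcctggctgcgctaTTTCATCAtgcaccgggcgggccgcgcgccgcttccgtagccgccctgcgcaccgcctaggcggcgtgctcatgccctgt
Tars, chr15:11399609-11399908, minus strand: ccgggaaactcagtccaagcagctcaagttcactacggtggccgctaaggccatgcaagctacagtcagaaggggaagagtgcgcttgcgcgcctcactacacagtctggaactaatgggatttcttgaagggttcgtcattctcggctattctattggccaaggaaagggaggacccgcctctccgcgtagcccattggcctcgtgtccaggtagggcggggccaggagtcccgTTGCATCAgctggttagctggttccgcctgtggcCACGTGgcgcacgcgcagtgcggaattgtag
Aars, chr8:111033592-111033891, plus strand: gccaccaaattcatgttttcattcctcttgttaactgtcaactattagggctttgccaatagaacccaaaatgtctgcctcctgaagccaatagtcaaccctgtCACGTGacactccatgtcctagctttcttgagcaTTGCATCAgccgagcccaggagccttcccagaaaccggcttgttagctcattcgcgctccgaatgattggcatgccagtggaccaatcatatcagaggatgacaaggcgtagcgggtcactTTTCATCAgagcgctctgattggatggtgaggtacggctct
Of the genes printed, Iars and Gars were called against the P7 cerebella, and Tars, the threonine enzyme, and Aars were not. Tars had 53.8, 65.7, 60.03 and 67.3 CPM in tumors 1 to 4, 37.7, 37.9 and 33.0 CPM in the P7 cerebella and 59.9, 50.7 and 72.2 CPM in the SHH MB, with all tumors above the P7 cerebella and among the SHH MB. Kars, Qars, Mars1 and Farsa were called with neither motif in their window.

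Among the mitochondrial enzymes, Iars2, for isoleucine, had 65.2, 82.1, 63.9 and 95.3 CPM in tumors 1 to 4, 42.6, 32.2 and 30.2 CPM in the P7 cerebella and 47.6, 55.3 and 61.4 CPM in the SHH MB. The tumors were above both other groups, and the SHH MB were above the P7 cerebella. Its log2 fold change against the P7 cerebella was 1.13 ± 0.26 (edgeR adjusted p 0.0249), the lowest adjusted p of this class. Yars2, the tyrosine enzyme, had 11.9, 17.8, 14.1 and 25.4 CPM in tumors 1 to 4, 7.15, 6.55 and 6.99 CPM in the P7 cerebella and 7.62, 7.19 and 8.66 CPM in the SHH MB. All tumors were above all other libraries, tumor 4 the most, and the SHH MB were only slightly above the P7 cerebella. It had the largest change of this class, 1.33 ± 0.32 (edgeR adjusted p 0.0297). Nars2, for asparagine, had 59.2, 50.9, 54.8 and 48.3 CPM in tumors 1 to 4, 29.6, 29.5 and 28.1 CPM in the P7 cerebella and 39.0, 35.3 and 40.1 CPM in the SHH MB. Tumors were above SHH MB and SHH MB above P7 cerebella, with tumor 1 highest, and the log2 fold change was 0.87 ± 0.22 (edgeR adjusted p 0.0355).

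Tars2, for threonine, had 55.3, 57.6, 47.0 and 63.8 CPM in tumors 1 to 4, 34.6, 27.6 and 33.4 CPM in the P7 cerebella and 31.1, 33.5 and 34.2 CPM in the SHH MB. The tumors were above the other groups, which overlapped. At 0.81 ± 0.23 it was just past the threshold (edgeR adjusted p 0.0529). Rars2, for arginine, had 36.7, 30.4, 29.9 and 37.3 CPM in tumors 1 to 4, 18.8, 18.6 and 20.3 CPM in the P7 cerebella and 22.6, 20.1 and 22.9 CPM in the SHH MB. All tumors were above the other groups, and its change of 0.81 ± 0.23 was not called (edgeR adjusted p 0.0541). Both Tars2 and Rars2 were called by DESeq2 and without tumor 1.

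Sars2, the serine enzyme, was not called, at 0.90 ± 0.28 (edgeR adjusted p 0.0719). It had 15.6, 16.2, 16.0 and 24.3 CPM in tumors 1 to 4, 9.20, 9.72 and 10.1 CPM in the P7 cerebella and 16.0, 17.6 and 12.4 CPM in the SHH MB, with tumors 1 to 3 close together, tumor 4 above every other library and the P7 cerebella below all tumors and SHH MB. Wars2, the tryptophan enzyme, had 14.6, 30.4, 30.8 and 30.9 CPM in tumors 1 to 4, 23.9, 26.0 and 23.3 CPM in the P7 cerebella and 18.7, 17.8 and 17.9 CPM in the SHH MB. Tumor 1 was under every other library, tumors 2 to 4 were above them all and nearly equal, and the SHH MB were under the P7 cerebella. Its fitted change against the P7 cerebella was 0.13 ± 0.28. Aars2, the alanine enzyme, had 25.3, 33.1, 28.3 and 29.8 CPM in tumors 1 to 4, 26.2, 25.0 and 37.1 CPM in the P7 cerebella and 22.7, 22.7 and 18.6 CPM in the SHH MB. The tumors lay among the P7 cerebella, 1 of which, at 37.1 CPM, was the highest of all libraries. Against the P7 cerebella, 2 of 8 class I and 1 of 8 class II mitochondrial enzymes were called, against 3.99% of all genes tested. Without tumor 1 there were 5 and 5, against 11.1%, and without tumor 3 there were 4 and 5, against 11.8%. Without tumor 2, tumor 4, any 1 SHH MB or any 1 P7 cerebellum there were 0 and 0, against 1.77%, 1.80%, 1.34% to 1.46% and 0.100% to 0.227%. DESeq2 called 5 and 5, against 10.4%.

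**Figure D4:**
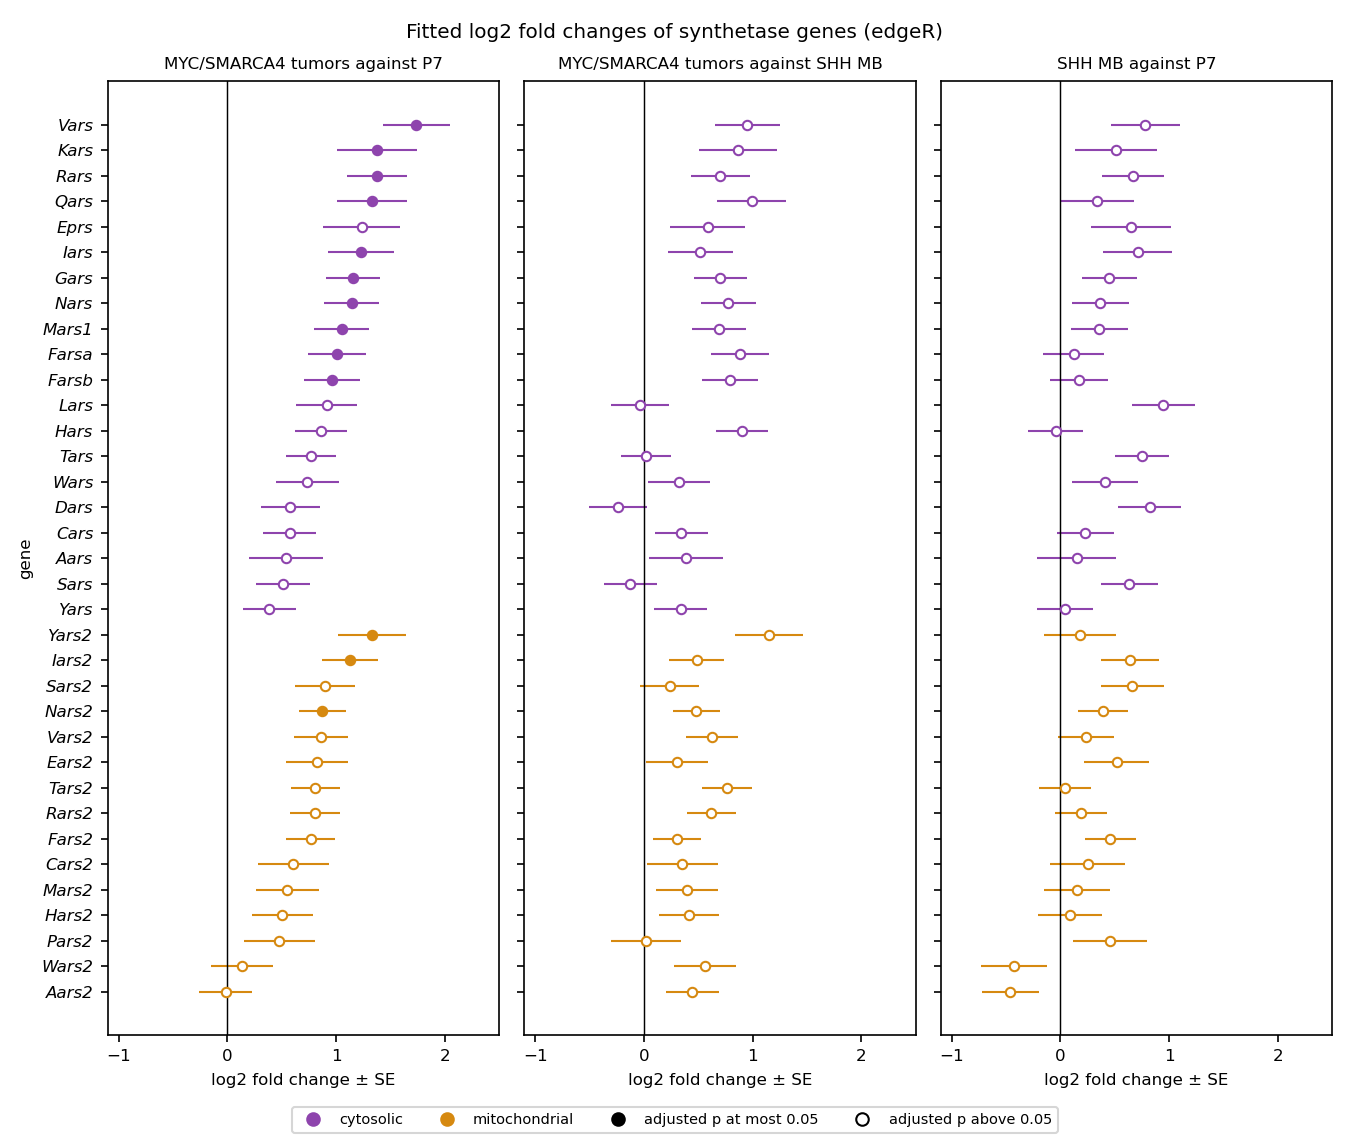
Fitted log2 fold change with its standard error (horizontal axis) of 35 of the 36 synthetase genes (vertical axis; 1 mitochondrial member is not shown) in the 3 comparisons, with filled points for an adjusted p of at most 0.05 by edgeR. In the first panel 13 genes are filled, led by Vars at 1.74, and in the other panels none is.

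Between the classes, the ratio of summed cytosolic to summed mitochondrial CPM was 3.56, 3.85, 3.88 and 4.36 in tumors 1 to 4, 3.17, 3.35 and 3.16 in the P7 cerebella and 3.84, 3.68 and 3.88 in the SHH MB. Tumors and SHH MB overlapped in this ratio, and both groups lay above the P7 cerebella. The median member of the cytosolic class exceeded that of the mitochondrial class by -0.01, 0.14, 0.05 and 0.37 on the log2 scale in tumors 1 to 4 and by 0.24, 0.23 and 0.14 in the SHH MB. Only tumor 4 had a gap larger than every SHH MB, and whether the classes differ in their response was not tested. Without Gars and Kars, which supply both compartments, the median log2 fold change of the cytosolic class against the P7 cerebella was 0.94.

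Levels of different genes can be compared only per length, here as CPM per kilobase of the canonical transcript. By mean over the tumors Kars was highest with 73.2 ± 31.6 (SD over 4 libraries), followed by Gars with 66.0 ± 11.6, Vars with 50.7 ± 17.1, Nars with 50.5 ± 11.4 and Eprs with 50.1 ± 20.5. These spreads are wide, and neighbors in this order do not differ beyond them. In tumor 1 Kars was at 28.6, under Nars at 63.8 and Gars at 57.5. In the P7 cerebella Gars led with 29.6 ± 3.16, then Kars with 28.2 ± 1.73 and Nars with 22.8 ± 0.891, and Vars was at 15.2 ± 0.494. Vars held rank 12 of 36 in the P7 cerebella, rank 7 in the SHH MB and rank 3 in the tumors. The lowest cytosolic gene in each group was Cars, the cysteine enzyme, with 7.48 ± 1.31 in the tumors. The highest mitochondrial gene was Fars2, for phenylalanine, with 29.8 ± 4.59 in the tumors, 17.5 ± 0.510 in the P7 cerebella and 24.2 ± 0.597 in the SHH MB. The median cytosolic gene had 30.0, 15.9 and 20.3 CPM per kilobase in the tumors, P7 cerebella and SHH MB, and the median mitochondrial gene 6.76, 4.62 and 5.22.

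The comparison of the tumors with the SHH MB sets tumors with added Myc and floxed Smarca4 beside hedgehog-driven tumors of the same lineage. Smarca4 status, host, age and transplantation thus differ as well as the driver. This comparison shares the 4 tumors with the comparison above. No member was called by edgeR at an adjusted p of at most 0.05, higher or lower, against 2.43% and 2.26% of all genes tested. At an unadjusted p under 0.05, 15 members were higher, 10 cytosolic and 5 mitochondrial, beside 3813 of all 29952 genes, and 0 lower, beside 2126. DESeq2 called 9 higher, against 7.89% of all genes tested: Farsa, Farsb, Gars, Hars, Nars, Qars, Vars, Tars2 and Yars2. Without tumor 1 edgeR called 12, 8 cytosolic and 4 mitochondrial, against 5.91% of all genes tested, and without tumor 3 it called 7, against 9.57%. In 16 members every tumor was above every SHH MB, against 7.83% of all genes tested. The median log2 fold change was 0.64 for the cytosolic and 0.46 for the mitochondrial members, beside 0.01 for all genes tested, and without tumor 4 the cytosolic median was 0.42, or 0.41 with a block for replicate number. With at least 10 counts in every library the mitochondrial median was 0.28. At an adjusted p of at most 0.01, 0 members reached 1.5 on the log2 scale, against 1.23% of all genes tested, and 2.5 was reached by 0 members and 180 genes in all.

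Hars had the lowest adjusted p of the members against the SHH MB, at 0.90 ± 0.24 (edgeR adjusted p 0.0525), and Yars2 the largest change, at 1.15 ± 0.31 (edgeR adjusted p 0.0569). Vars stood at 0.95 ± 0.30, Qars at 0.99 ± 0.32, Farsa at 0.89 ± 0.27 and Tars2 at 0.76 ± 0.23 in this comparison, none of them called. Farthest from the cytosolic median were Dars at -0.24 ± 0.27, Sars at -0.12 ± 0.25 and Lars at -0.04 ± 0.27, the 3 members fitted lower in the tumors than in the SHH MB. Their levels in the SHH MB, given above, overlapped those of the tumors. Farthest among the mitochondrial members were Yars2, Tars2 and Pars2, the proline enzyme, with 9.42, 8.10, 10.4 and 15.1 CPM in tumors 1 to 4 and 9.80, 12.02 and 10.1 CPM in the SHH MB. Pars2 overlapped fully between the groups and had 0.02 ± 0.32.

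The comparison of the SHH MB with the P7 cerebella, which shares its libraries with the other comparisons, sets hedgehog-driven tumors beside cerebella of the same age that carry floxed Smarca4 with Cre, so Smarca4 status differs as well. In the fit of all 10 libraries 0 members were called higher, against 0.177% of all genes tested, and 0 lower, against 0.0467%. At an unadjusted p under 0.05 by edgeR, 9 members were higher, 7 cytosolic and 2 mitochondrial, beside 1546 of all 29952 genes, and 0 lower, beside 1089, and DESeq2 called 0. Yet in 22 members every SHH MB was above every P7 cerebellum, against 17.8% of all genes tested, and in 2, Aars2 and Wars2, every SHH MB was below, beside 5703 of all 29952 genes. The median log2 fold change was 0.43 for the cytosolic members, 0.24 for the mitochondrial members and -0.09 for all genes tested. All 8 complex enzymes were without overlap and had a median of 0.66, and 6 of the 12 outside it had no overlap, with a median of 0.30.

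The fit of all libraries takes a single dispersion per gene over the 3 groups. Counts of pairs of tumors differed by 26.6 to 99.1 times the variance that counting alone gives, against 3.76 to 6.22 for pairs within the other groups. A fit of the SHH MB and P7 cerebella alone called 19 members higher, 13 cytosolic and 6 mitochondrial, against 13.4% of all genes tested. In this fit the called members included Lars, Vars, Dars, Iars, Kars, Rars, Gars, Nars, Mars1 and Eprs, and all were higher in 3 of 3 SHH MB than the mean of the P7 cerebella. Lars had the largest fitted change in the fit of all libraries, 0.95 ± 0.29 (edgeR adjusted p 0.349), and was the gene called there when tumor 1 was left out, against 2.30% of all genes tested. Dars followed with 0.82 ± 0.29 and Vars with 0.78 ± 0.31. Side by side, Dars had 0.58 for the tumors against P7 cerebella and 0.82 for the SHH MB against P7 cerebella, while Hars had 0.86 and -0.04, Farsa 1.01 and 0.12, and Yars2 1.33 and 0.18. Aars2 had -0.46 ± 0.26 and Wars2 -0.43 ± 0.30 in the SHH MB against the P7 cerebella.

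In GENCODE on GRCm39 all 36 members were found, 17 of them under a newer symbol such as Vars1 for Vars. They lie on 15 chromosomes, and 29 overlap another gene, 8 on the same strand and 27 on the other. Hars and Hars2 are neighbors on chromosome 18 that overlap at their starts on opposite strands. Mars1, at chr10:127128344-127147776, overlaps Ddit3, a stress response factor gene on the other strand. Sars2 overlaps Mrps12, a mitochondrial ribosomal protein gene, in the same way. The use of strand in counting was not stated, so levels of overlapping genes are uncertain to that extent. Gars, Nars, Qars and Rars, which were called, overlap no other gene.

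The proteins that hold the complex together were compared in the same fit. Aimp1, a scaffold that binds Rars and Qars, had 51.3, 43.6, 48.4 and 50.5 CPM in tumors 1 to 4, 24.9, 24.5 and 21.8 CPM in the P7 cerebella and 24.0, 19.9 and 23.6 CPM in the SHH MB. All tumors were above both other groups, which overlapped, and the log2 fold changes were 1.03 ± 0.22 against the P7 cerebella (edgeR adjusted p 0.0215) and 1.11 ± 0.22 against the SHH MB (edgeR adjusted p 0.0158). Of the 3 scaffold genes only Aimp1 was called by edgeR in either comparison, against 3.99% and 2.43% of all genes tested called higher. Leaving out tumor 1 gave 2 calls against the P7 cerebella, against 11.1% of all genes tested. Leaving out any 1 P7 cerebellum or SHH MB gave 0, against 0.100% to 0.227% and 1.34% to 1.46%. Eef1e1, a further scaffold gene, had 18.8, 36.5, 38.2 and 58.1 CPM in tumors 1 to 4, 25.5, 21.3 and 21.4 CPM in the P7 cerebella and 14.6, 16.5 and 16.6 CPM in the SHH MB. Of the 4 genes for mitochondrial glutaminyl-tRNA amidation and formylation, which stand in for a mitochondrial glutamine enzyme and modify the initiator, 0 were called by edgeR against the P7 cerebella, against 3.99% of all genes tested, and 1 was at an unadjusted p under 0.05. DESeq2 called 1, against 10.4%, as did edgeR without tumor 1 or tumor 3, against 11.1% and 11.8%.

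Genes that make and modify tRNA were counted by list, with the share of all genes tested called higher against P7 cerebella given above. Against the P7 cerebella 4 of 20 genes of tRNA maturation and export, 4 of 22 of RNA polymerase III and its factors and 11 of 32 of tRNA modification were called higher and 0 lower by edgeR, with 0 lower at an unadjusted p under 0.05 and by DESeq2. DESeq2 called 10, 11 and 20 higher, against 10.4% of all genes tested, and so did edgeR without tumor 1, against 11.1%, while without tumor 3 it called 9, 9 and 15, against 11.8%. Without tumor 2 there were 2, 1 and 7, against 1.77%, without tumor 4 there were 1, 1 and 5, against 1.80%, and without any 1 SHH MB there were 1, 1 to 2 and 5 to 6, against 1.34% to 1.46%. Without any 1 P7 cerebellum there were 0, 0 and 0 to 1, against 0.100% to 0.227%. Their median log2 fold changes of 0.91, 0.72 and 0.82 lie beside 0.99 and 0.81 for the synthetase classes. Nsun2, a cytosine methyltransferase, had 115, 237, 275 and 402 CPM in tumors 1 to 4, 50.9, 48.8 and 50.4 CPM in the P7 cerebella and 83.7, 77.7 and 89.2 CPM in the SHH MB. The groups did not overlap, tumor 1 was the lowest tumor, and the log2 fold change of 2.36 ± 0.37 (edgeR adjusted p 0.00613) exceeded that of every synthetase. Polr3e, a polymerase subunit, had 61.7, 89.1, 79.6 and 106 CPM in tumors 1 to 4, 31.5, 32.8 and 32.0 CPM in the P7 cerebella and 39.2, 42.2 and 41.0 CPM in the SHH MB, again without overlap, and 1.39 ± 0.25 (edgeR adjusted p 0.0105). Xpot, the exporter of tRNA from the nucleus, had 83.5, 149.6, 113 and 279.9 CPM in tumors 1 to 4 and 52.7, 57.3 and 49.7 CPM in the P7 cerebella, and Trnt1, which adds the tRNA end that the synthetases charge, 66.4, 40.0, 32.3 and 40.5 CPM and 21.9, 15.3 and 13.8 CPM. Both were called, at 1.56 ± 0.37 and 1.39 ± 0.30 (edgeR adjusted p 0.0315 and 0.0215).

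Downstream of charging, 4 of 6 cytosolic elongation factor genes and 2 of 9 mitochondrial translation factor genes were called higher against the P7 cerebella, with medians of 1.23 and 0.78, against 3.99% of all genes tested. Without tumor 1 these were 6 and 4, against 11.1%, and without tumor 3 they were 4 and 3, against 11.8%. Without tumor 2 or tumor 4 they were 0 and 1, against 1.77% and 1.80%, and without any 1 SHH MB or P7 cerebellum they were 0 and 0, against 1.34% to 1.46% and 0.100% to 0.227%. By DESeq2 they were 4 and 3, against 10.4%. Eef1b2, a subunit of the complex that Vars binds, had 115, 576, 649 and 500.0 CPM in tumors 1 to 4, 121, 132 and 139 CPM in the P7 cerebella and 182, 191 and 234 CPM in the SHH MB. Tumor 1 lay under every other library and tumors 2 to 4 above all of them, where Kars and Eprs in tumor 1 were at the level of the P7 cerebella. Gfm1, a mitochondrial elongation factor, had 65.7, 62.6, 51.6 and 67.3 CPM in tumors 1 to 4 against 29.5, 32.4 and 28.5 CPM in the P7 cerebella and was called at 1.03 ± 0.23 (edgeR adjusted p 0.0219).

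Of 23 ATF4 targets and genes of amino acid supply, 2 were called higher against the P7 cerebella, Asns and Eif4ebp1, against 3.99% of all genes tested, with a list median of 0.72. Fitted changes were below 0 for 5 of the 23, down to -0.68, and 0 were called lower, against 2.27% of all genes tested. Without tumor 1 edgeR called 10 higher, against 11.1% of all genes, and without tumor 3 it called 9 higher, against 11.8%. Without tumor 4 it called 1, against 1.80%, without P7 cerebellum 1 it called 1, against 0.227%, and without P7 cerebellum 2 or 3 it called 0, against 0.100% and 0.124%. DESeq2 called 8 higher, against 10.4%. Without tumor 3 edgeR also called 1 lower, beside 6551 of 28724 genes. Asns, which makes asparagine, the substrate of Nars and Nars2, had 66.2, 50.03, 60.03 and 97.1 CPM in tumors 1 to 4, 21.8, 21.2 and 18.4 CPM in the P7 cerebella and 17.7, 19.2 and 14.1 CPM in the SHH MB. All tumors were above all other libraries, and its changes were 1.74 ± 0.28 (edgeR adjusted p 0.00666) and 2.01 ± 0.29 (edgeR adjusted p 0.00206) against the P7 cerebella and the SHH MB. Eif4ebp1, an inhibitor of translation initiation, had 2.48, 24.3, 33.3 and 32.4 CPM in tumors 1 to 4 against 2.35, 3.49 and 3.42 CPM in the P7 cerebella, with tumor 1 at their level. Psat1, of serine synthesis, was highest in the SHH MB at 182, 197 and 214 CPM, against 51.1, 89.3, 88.6 and 156 CPM in tumors 1 to 4 and 48.5, 42.2 and 44.9 CPM in the P7 cerebella, and was called there against the P7 cerebella at 2.13 ± 0.36 (edgeR adjusted p 0.0381). It was called by DESeq2 and without any 1 tumor, but not without any 1 P7 cerebellum or SHH MB.

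**Figure D5:**
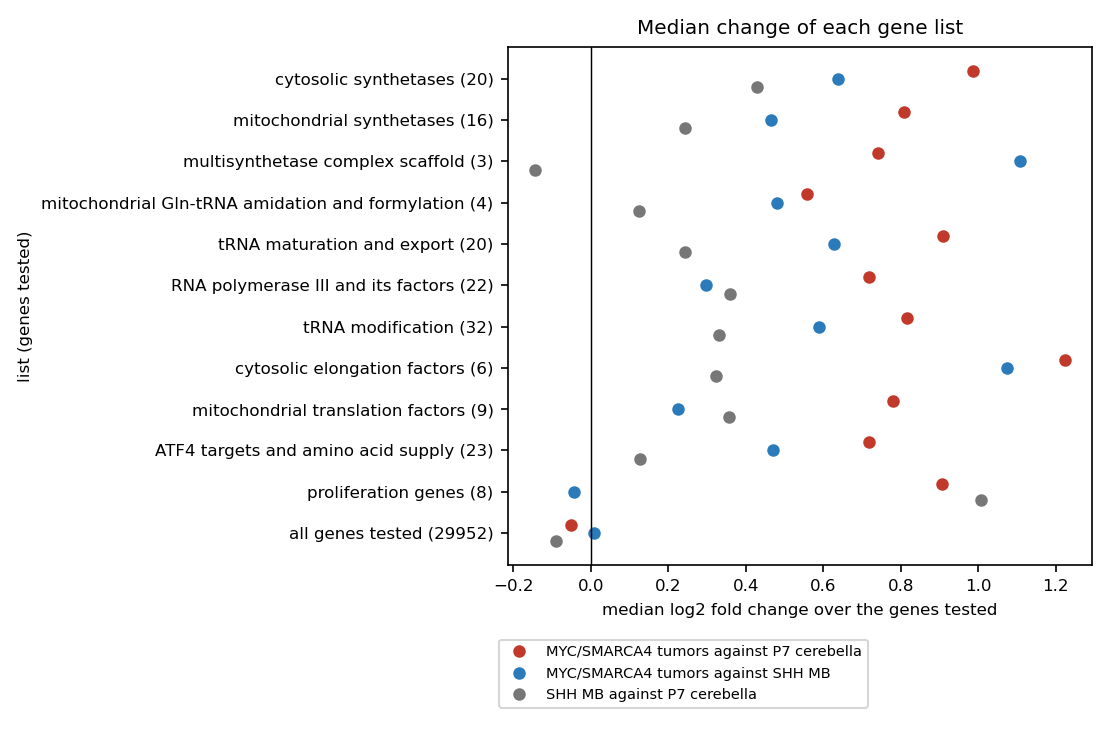
Median log2 fold change (horizontal axis) over the tested genes of each list (vertical axis, number of genes in parentheses) in the 3 comparisons. Against the P7 cerebella the cytosolic synthetases stand at 0.99 and all genes tested at -0.05, with cytosolic elongation factors at 1.23.

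The 8 proliferation genes had a median log2 fold change of 0.91 against the P7 cerebella with 0 called by edgeR, against 3.99% of all genes tested called higher. At an unadjusted p under 0.05 there was 1, by DESeq2 0, against 10.4%, and without tumor 1 edgeR called 7, against 11.1%. Astrocyte and Bergmann glia markers, 5 genes led by mean CPM over the tumors, not scaled to length, by Slc1a3, a glutamate transporter gene, though not in tumor 1, summed to 259.8, 849.8, 96.8 and 489 CPM in tumors 1 to 4, 1588, 1549 and 1529 CPM in the P7 cerebella and 895, 881 and 785 CPM in the SHH MB. Of these, 3 were called lower against the P7 cerebella, against 2.27% of all genes tested. Without tumor 4 or any 1 P7 cerebellum or SHH MB there was 1. Of all genes, 462 were called lower without tumor 4, 118 to 159 without a P7 cerebellum and 328 to 355 without an SHH MB. Microglia and macrophage markers, 7 genes led by Csf1r, a receptor gene, summed to 148, 94.5, 41.3 and 115 CPM in tumors 1 to 4, 70.5, 71.5 and 68.6 CPM in the P7 cerebella and 61.9, 72.6 and 42.3 CPM in the SHH MB, with 0 called by edgeR, 2 at an unadjusted p under 0.05 and 0 by DESeq2. Without tumor 3, 2 of these 7 were called higher against the P7 cerebella, against 11.8% of all genes tested. The 6 endothelial markers, led in the tumors by the receptor gene Flt1, summed to 288, 149, 96.5 and 129.8 CPM in tumors 1 to 4, 198, 186 and 186 CPM in the P7 cerebella and 220.1, 177 and 219.9 CPM in the SHH MB. Against the P7 cerebella 0 were called by edgeR, and DESeq2 called 1 lower, beside 1340 of all 30186 genes. Without tumor 1 edgeR called 4 lower, beside 1493 of all 29877 genes, and without tumor 3 it called 2 lower, beside 6551 of 28724. The 5 fibroblast markers, led there on average by the collagen gene Col1a1, summed to 196, 239.7, 77.0 and 346 CPM in tumors 1 to 4, 332, 326 and 303 CPM in the P7 cerebella and 314, 277 and 364 CPM in the SHH MB. The 5 erythrocyte markers, led by mean CPM over the tumors by the hemoglobin gene Hbb-bs, though not in tumors 3 and 4, summed to 159.9, 196, 30.9 and 64.9 CPM in tumors 1 to 4, 83.0, 119 and 125 CPM in the P7 cerebella and 72.2, 355 and 89.1 CPM in the SHH MB. Hba-a2, another hemoglobin gene of this list, had 1.98, 0.900, 0.979 and 0.488 CPM in tumors 1 to 4. It had 12.3, 15.9 and 22.3 CPM in the P7 cerebella and 11.4, 64.9 and 14.8 CPM in the SHH MB. Of the 5 genes, 1 was called lower by edgeR in each of these comparisons, against 2.27% and 2.26% of all genes tested, and 0 higher. The part of any of these cells in the synthetase levels was not tested.

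Of the 22 mitochondrial tRNA genes in the files, the substrates of the mitochondrial enzymes, 13 passed the filter. Their summed level was 578, 225, 89.0 and 107 CPM in tumors 1 to 4, 70.9, 59.2 and 66.2 CPM in the P7 cerebella and 37.0, 48.9 and 44.2 CPM in the SHH MB. Tumor 1 was highest, as it was for mitochondrial transcripts as a whole, and tumors 3 and 4 were nearest to the P7 cerebella. Against the P7 cerebella 4 of 13 were called higher, against 3.99% of all genes tested, with a median log2 fold change of 1.76. DESeq2 called 9, against 10.4%. Without tumor 1 there were 4 of the 12 left by the filter, with a median of 1.01, against 11.1%, and without tumor 2 there were 2 of 12, against 1.77%. Without tumor 3 there were 9, against 11.8%, and without tumor 4 there were 4, against 1.80%. Without any 1 SHH MB there were 2, against 1.34% to 1.46%, and without any 1 P7 cerebellum 1, against 0.100% to 0.227%. The summed level of the mitochondrial synthetases was instead highest in tumor 4, and the relation between enzymes and substrates was not tested.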

How the data were processed

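RNA of 4 MYC/SMARCA4 tumors, 3 P7 cerebella and 3 SHH MB was analysed. The authors checked reads with FastQC 0.73, trimmed them with Trimmomatic 0.38.1, aligned them to GRCm39 with STAR 2.7.8a and counted them per gene with featureCounts 2.0.1. The deposited counts are raw counts per gene and library. The authors also deposited log2 values from the variance-stabilizing transformation of DESeq2 2.11.40.7, used here only in an alternative. Libraries were grouped by their labels, and 0 columns were without a sample.

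Counts were fitted in R 4.3.3 by quasi-likelihood in edgeR 4.0.16, with TMM factors, filterByExpr by group and a mean per group over all 10 libraries. P-values of 29952 genes were adjusted by the Benjamini-Hochberg method, and a gene was called at an adjusted p of at most 0.05. The study's log2 fold changes of 1.5 and 2.5 with an adjusted p of at most 0.01 were second rules. P-values measure only the spread between these samples. Floors of 3 counts, in total counts of 5663491 to 9352109, cover counting error only. The fits were tested on simulated data, in which DESeq2 made both more true calls and more false calls than edgeR, and limma made the fewest of either.

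Values in every library were given for Myc and Smarca4, for up to 8 cytosolic and 6 mitochondrial members with the lowest adjusted p in a tumor comparison, for members with an outlying library and for the 3 members not called that lie farthest from their class median. From every other list, up to 4 genes with the lowest p against P7 cerebella could be named. Cars, Eprs, Farsb, Fars2, Hars, Kars, Tars, Atoh1, Mki67, Mbp, Hbb-bs, Slc1a3 and the overlapping genes fall outside this rule and were chosen after their values were seen. The members and lists were chosen with earlier results of these data known. Alternatives were RLE factors, other filters on low counts (none, or at least 10 counts in every library), DESeq2 1.42.0, limma 3.58.1 on the deposited values, fits of 2 groups, a block for replicate number, robust estimation, totals computed without rRNA-like and mitochondrial genes, levels with a prior count changed from 2 to 0.5, the class without Gars and Kars, and each library left out. Lars2 and Tarsl2, a gene like Tars that the rule does not match, were left out. Protein sequences, human data and DNA methylation were not analysed here.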

Additional observations from a re-analysis of the deposited data

Results flagged for a closer look

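In the 4 MYC/SMARCA4 tumors, the gap between the highest or lowest library and its neighbor was compared with the whole range of the group for log2 CPM of each synthetase and 4 class levels, 40 groups of values in all. A library lay apart by Dixon's criterion for 4 samples in 5 of them, where chance gives about 1 in 20 for a single group. All 40 groups come from the same 4 libraries and are not independent, so the 5 cannot be set against that rate. Wars2 was low in tumor 1, with a ratio of 0.980, and so was Qars, with 0.851. Tumor 3 was low for Yars, with 0.831. Tumor 4 was high for Sars2, with 0.918, and for Farsa, with 0.836. The cause was not tested. Without tumor 1, Qars was called higher than in the P7 cerebella and in the SHH MB, and Wars2 than in the SHH MB alone.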

How the results depend on the processing

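Against the P7 cerebella, the 10 cytosolic and 3 mitochondrial calls were the same numbers with RLE factors, robust estimation and library sizes without mitochondrial and rRNA-like genes. Without a filter, and with at least 10 counts in every library, they were 7 and 2, beside 2.22% and 5.10% of all genes called higher. They became 14 and 10 by DESeq2, beside 10.4%, 3 and 0 by limma on the deposited values, beside 1.20%, 0 and 0 in the fit of 2 groups, beside 0.206%, and 0 and 0 under both rules of log2 fold change with an adjusted p of at most 0.01. With 1 library left out they ranged from 0 to 14 and from 0 to 10, beside 0.100% to 11.8% of all genes. The medians were 0.71 and 0.54 with at least 10 counts in every library, and 0.75 to 1.03 and 0.66 to 0.83 with 1 library left out, lowest without tumor 4.

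Against the SHH MB, the 0 calls became 7 and 2 by DESeq2, beside 7.89% of all genes called higher. With at least 10 counts in every library they were 2 cytosolic, beside 4.77%. They ranged from 0 to 8 and 0 to 4 with 1 library left out, beside 0.166% to 9.57%. With 1 library left out the medians ranged from 0.42 to 0.69 and from 0.34 to 0.52, lowest without tumor 4, and the mitochondrial median was 0.28 with at least 10 counts in every library. For the SHH MB against the P7 cerebella, the 0 calls became 13 and 6 in the fit of 2 groups, beside 13.4% of all genes. With 1 library left out they ranged from 0 to 1 and 0 to 0, beside 0% to 2.30%. The medians then ranged from 0.39 to 0.52 and from 0.23 to 0.34. The cause was not tested.

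With the replicate number as a block, 0 cytosolic and 0 mitochondrial members were called against the P7 cerebella, beside 0.551% of all genes, and the cytosolic median against the SHH MB was 0.41. Replicates with the same number in different groups had correlations of 0.05, 0.0012 and 0.16 for tumors and P7 cerebella, -0.05, -0.10 and -0.27 for tumors and SHH MB, and -0.09, 0.04 and -0.04 for SHH MB and P7 cerebella, so the groups were not treated as paired.

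For Aars2, the tumors against the P7 cerebella, the sign changed at 0.00884 with RLE factors, 0.041 without a filter, 0.040 by DESeq2, 0.047 by limma, 0.057 without tumor 1, 0.13 without P7 cerebellum 3, 0.00569 without SHH MB 1, 0.00110 without SHH MB 2 and 0.00981 without SHH MB 3, with -0.15 to 0.13 when 1 library was left out. For Hars, the SHH MB against the P7 cerebella, the sign changed at 0.00996 without a filter, 0.00175 by DESeq2 and 0.065 without SHH MB 3, with -0.074 to 0.065 when 1 library was left out. For Lars, the tumors against the SHH MB, the sign changed at 0.11 without tumor 1, with -0.27 to 0.11 when 1 library was left out. For Pars2, the tumors against the SHH MB, the sign changed at -0.16 with at least 10 counts in every library, -0.051 in the fit of 2 groups, -0.20 with the replicate block, -0.11 without tumor 3, -0.24 without tumor 4, -0.057 without P7 cerebellum 3, -0.050 without SHH MB 1 and -0.027 without SHH MB 3, with -0.24 to 0.14 when 1 library was left out. For Sars, the tumors against the SHH MB, the sign changed at 0.015 without SHH MB 3, with -0.30 to 0.015 when 1 library was left out. For Wars2, the tumors against the P7 cerebella, the sign changed at -0.088 with at least 10 counts in every library and -0.071 without tumor 3, with -0.071 to 0.34 when 1 library was left out. The cause was not tested. Each of these was a change near 0 that was not called. Total counts of 5663491 to 9352109 put the floor of 3 counts at 0.307 to 0.744 CPM.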

Other observations

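Lars2 was left out of every count above. Its deposited counts were 25771, 19924, 6900 and 8959 in tumors 1 to 4, 2164, 1229 and 1201 in the P7 cerebella and 8165, 13705 and 7319 in the SHH MB. Reads that resemble ribosomal RNA, Lars2 included, made up 2.21%, 2.06%, 2.68% and 3.67% of each total in tumors 1 to 4, 0.595% to 0.659% in the P7 cerebella and 1.05% to 1.49% in the SHH MB. Lars2 was highest in tumor 1 and this share in tumor 4, so the order of the tumors was not the same in both. Tarsl2 had 127, 139, 132 and 366 counts in tumors 1 to 4, 269, 173 and 146 in the P7 cerebella and 102, 168 and 117 in the SHH MB.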
